A study of Mus musculus with 24 samples.

Results

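The heat shock chaperones described here are 10 genes, Hspa1a, Hspa1b, Hspa8, Hspa5, Hsp90aa1, Hsp90ab1, Hsph1, Dnajb1, Hspb1 and Hspd1, out of 56941 genes in a count table of mouse kidney. They were chosen by name, with earlier results of these data known, and all 10 were among the 12780 genes that passed the filter on low counts. Young adult male wild-type C57BL/6J mice had a coronary artery, the left anterior descending, tied off for good, which causes a myocardial infarction (MI), and kidneys were taken at 5d or 28d post-MI. Sham-operated mice had the same operation without the ligation, and their kidneys, taken at 5d, were the controls for both times, so the comparisons at 5d and 28d share their controls, and time since surgery and MI cannot be told apart at 28d. All mice received isoflurane and buprenorphine for the operation and had haemodynamic measurements before the organs were taken, and every sample is 1 kidney RNA of 1 mouse. The labels list 8 sham, 9 5d post-MI and 7 28d post-MI kidneys. Of these, 22 could be assigned to columns of the table, 8 sham, 8 at 5d and 6 at 28d.

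Heat shock proteins are chaperones that bind unfolded or unstable proteins and help them to fold, or pass them on for degradation. In the cytosol, J-domain proteins such as Dnajb1 deliver clients to the HSP70 proteins Hspa1a, Hspa1b and Hspa8, Hsph1 exchanges their nucleotide, and the HSP90 proteins Hsp90aa1 and Hsp90ab1 finish the folding of kinases and hormone receptors. Hspb1 is a small heat shock protein that holds clients without ATP, Hspa5 (BiP) is the HSP70 of the endoplasmic reticulum (ER), and Hspd1 (HSP60) is the chaperonin of the mitochondrial matrix. Heat and other proteotoxic stress raise the cytosolic genes through heat shock factor 1 (HSF1), which binds inverted repeats of GAA, whereas unfolded protein in the ER raises Hspa5 through the ER stress element. In the kidney, the inducible members are known to respond to ischaemia and to the high osmolality of the medulla.

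Of the 10 genes, 7 had a promoter in the RefSeq table used here (GRCm38.p6), and these were searched for the letters of both kinds of element over the 250 bases before the start. The stretches that hold a match are shown because the element they hold in Hspa1a, Hspa1b, Hspb1 and Hsph1 is another one than in Hspa5. Matches are in capitals, and each stretch reads 5′ to 3′ on the strand of its gene.

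Hspa1a, chr17:34972228-34972287, minus strand: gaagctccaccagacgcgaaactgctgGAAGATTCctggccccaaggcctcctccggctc
Hspa1b, chr17:34959310-34959369, minus strand: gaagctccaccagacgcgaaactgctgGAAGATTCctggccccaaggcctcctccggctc
Hspb1, chr5:135887785-135887844, plus strand: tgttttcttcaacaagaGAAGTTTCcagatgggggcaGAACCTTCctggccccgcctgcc
Hsph1, chr5:149636352-149636381, minus strand: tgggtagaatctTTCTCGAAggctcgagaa
Hspa5, chr2:34772019-34772048, plus strand: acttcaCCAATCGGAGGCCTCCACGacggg

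The pair GAANNTTC, which reads the same on both strands, lay 104 to 97 bases before the start in Hspa1a and in Hspa1b, and Hspb1 held it at 117 to 110 and again at 97 to 90 bases before the start. Hsph1 held the other arrangement, TTCNNGAA, 33 to 26 bases before its RefSeq start. Either pair is short, and 12.8% of the 32851 mouse promoters of this length held one of them. Hspa5 held the full ER stress element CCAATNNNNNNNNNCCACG 65 to 47 bases before the RefSeq start, which 0.113% of promoters held on either strand. GENCODE M21 places the start of Hspa5 120 bases and that of Hsph1 40 bases upstream of the RefSeq start. By that annotation both matches lie after the start of the gene, so only short stretches are shown for them. These letters were not found in the 250-base windows of Dnajb1 and Hspd1. For Dnajb1, Hspd1 and Hsph1, 2 RefSeq starts were listed, and only the window of the start nearest to that of GENCODE was searched. Hspa8, Hsp90aa1 and Hsp90ab1 were not analysed for motifs. The motifs describe the sequence and were not tested as binding sites.

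Expression was measured by Massive Analysis of cDNA Ends (MACE), which reads the 3′ ends of polyadenylated mRNA and counts molecules by unique molecular identifiers. Values below are CPM, the counts of a gene scaled to a common library total, normalized between kidneys by edgeR's TMM method. The library totals were between 2280618 and 3786275 counts. All 10 kidney-defining genes listed (among them Lrp2, Umod and Aqp2) had counts in every kidney. Their sum was between 62550 and 70710 CPM at 28d and between 50990 and 60320 in sham, without overlap. All 10 had a log2 fold change above 0 at 28d against sham (49.6% of all genes tested), with a median of 0.12. Of the 10, 3 had an unadjusted p under 0.05 upwards (4.45% of all genes tested). At 5d the sum was between 36260 and 67350 CPM, which overlapped both other groups. At 28d against 5d, 4 of the 10 were above 0 (48.6% of all genes tested) and 6 below, with a median of −0.04. In this comparison 4 had an unadjusted p under 0.05 upwards (5.03% of all genes tested). The part of these shifts in the results was not tested. In whole kidney, fewer cells of a type and less RNA per cell cannot be told apart.

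The question was whether the chaperones differ between kidneys of mice with and without MI, and between the acute and the later time. Dnajb1 and Hsp90aa1 rose from 5d to 28d post-MI, and none of the 10 genes passed the test against sham at either time. Over all 12780 genes tested, the share called at an adjusted p-value under 0.05 was 0.0704% at 5d against sham, 0.0235% at 28d against sham and 0.415% at 28d against 5d, of which most were higher at 28d (0.336%). Without adjustment, 3 of the 10 genes had p under 0.05 and were lower at 5d than in sham (3.97% of all genes), 4 were higher at 28d than in sham (4.45%) and 5 were higher at 28d than at 5d (5.03%). The median log2 fold change of the 10 genes was −0.16 at 5d against sham, 0.23 at 28d against sham and 0.43 at 28d against 5d, where the median of all genes was 0.0002, −0.0012 and −0.0046. Of the 10 estimates, 3 were above 0 at 5d against sham (50.1% of all genes), 9 at 28d against sham (49.6%) and 10 at 28d against 5d (48.6%). Without 28d kidney 7, 6 of the 10 were above 0 at 28d against sham and the median was 0.14. The 10 genes vary together across kidneys, so these counts do not add up as 10 separate observations.

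**Figure D1:**
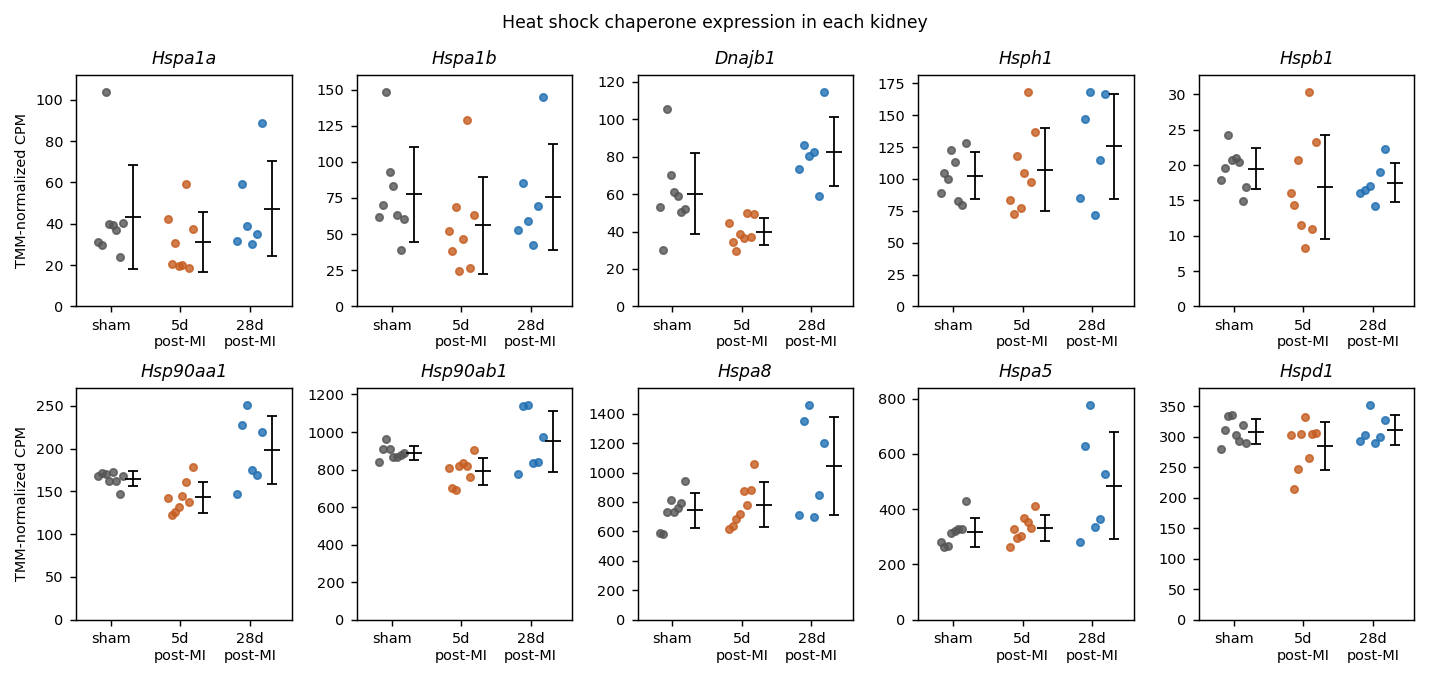
Normalized expression (TMM-normalized CPM, linear axes from 0) of each of the 10 chaperones in 8 sham, 8 5d post-MI and 6 28d post-MI kidneys. Each point is 1 kidney, and the bar beside the points gives the mean ± SD. The 28d points of Dnajb1 lie between 58.8 and 114.7 CPM, all above the 5d points.

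The inducible cytosolic HSP70 genes are a pair of near-identical copies. Hspa1a lies on chr17:34969190-34972156 and Hspa1b on chr17:34956436-34959238 (GRCm38, both on the minus strand). The 250 bases before their starts differ at 3 positions, and their longest open reading frames are 99.5% identical, whereas the last 300 bases of their transcripts, near which MACE reads, are 52.8% identical. Counts of the copies are therefore reported separately but remain uncertain, since the treatment of reads that map to both is not given in the sources used here, and a predicted gene, Gm20481, overlaps Hspa1a on the opposite strand.

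Hspa1a was at 24.0 CPM in the lowest, 38.2 in the median and 103.9 in the highest sham kidney, at 18.6, 25.8 and 59.3 at 5d post-MI, and at 30.3, 37.0 and 88.7 at 28d post-MI. The groups overlapped throughout, sham kidney 3 was far above the other sham kidneys, of which the next stood at 40.2 CPM, and 28d kidney 7 was the highest of its group. The log2 fold change of Hspa1a was −0.42 ± 0.33 (SE) at 5d against sham, 0.19 ± 0.35 at 28d against sham and 0.61 ± 0.36 at 28d against 5d, with edgeR adjusted p = 0.822, 0.929 and 0.657. Without sham kidney 3 the first of these was −0.13 and the second 0.48, and without 28d kidney 7 the third was 0.31.

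Hspa1b was at 39.2, 66.4 and 148.5 CPM in the lowest, median and highest sham kidney, at 24.7, 49.2 and 129.1 at 5d, and at 42.2, 64.2 and 144.8 at 28d. The kidney with the highest Hspa1b was, in each group, the one with the highest Hspa1a (sham 3, 5d 7 and 28d 7). The log2 fold changes were −0.43 ± 0.34, 0.00 ± 0.36 and 0.43 ± 0.36 in the same order, none of which passed the test (edgeR adjusted p = 0.816, 1.0 and 0.799). The 95% interval of the change at 28d against sham ran from −0.70 to 0.70. Summing the counts of both copies gave −0.44, 0.06 and 0.50, again with no call.

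Dnajb1, the J-domain protein that stimulates HSP70 in the cytosol and nucleus (chr8:83608193-83612653, plus strand), was at 30.1, 56.2 and 105.7 CPM in the lowest, median and highest sham kidney, at 29.8, 37.8 and 50.0 at 5d, and at 58.8, 81.4 and 114.7 at 28d. All 6 kidneys at 28d were above all 8 at 5d, which 0.25% of all genes showed in this direction, while the sham kidneys overlapped both groups. Dnajb1 rose 2.07-fold from 5d to 28d (log2 fold change 1.05 ± 0.20, SE, edgeR adjusted p = 0.0178). Against sham it was lower at 5d by a log2 of −0.57 ± 0.19 and higher at 28d by 0.48 ± 0.19, and neither passed the test (edgeR adjusted p = 0.444 and 0.494). The call at 28d against 5d was lost without 28d kidney 7 (adjusted p = 0.0579) and was kept in each of the other 21 fits that left out 1 kidney.

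Hsph1, the HSP110 nucleotide exchange factor (chr5:149614287-149636376, minus strand), was at 79.7, 102.6 and 128.4 CPM in the lowest, median and highest sham kidney, at 72.8, 100.9 and 168.5 at 5d, and at 71.8, 130.8 and 168.3 at 28d. At 28d, kidneys 2, 3 and 7 were above all sham kidneys and kidney 4 was below all of them. The log2 fold change at 28d against 5d was 0.23 ± 0.21 and did not pass the test (edgeR adjusted p = 0.829).

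Hspb1, the small heat shock protein that also binds actin filaments (chr5:135887919-135889563, plus strand), was at 14.9, 20 and 24.3 CPM in sham kidneys, at 8.23, 15.2 and 30.4 at 5d and at 14.2, 16.8 and 22.3 at 28d, again as lowest, median and highest. The widest spread was at 5d, where 4 of 8 kidneys were below every sham kidney and 1 was above every sham kidney. Its estimates were the only ones below 0 in both comparisons with sham (−0.16 ± 0.19 at 5d and −0.13 ± 0.21 at 28d), with edgeR adjusted p = 0.9 and 0.918.

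Both cytosolic HSP90 genes had their lowest median at 5d. Hsp90aa1, the stress-inducible form (chr12:110690605-110702728, minus strand), was at 146.5, 167.8 and 172.4 CPM in the lowest, median and highest sham kidney, at 122.2, 139.8 and 178.4 at 5d, and at 147.3, 197.4 and 250.9 at 28d. At 5d, 6 of 8 kidneys were below all sham kidneys, and at 28d, 4 of 6 were above all of them, while 28d kidney 1 stood at the lower end of the sham range. Hsp90aa1 rose 1.39-fold from 5d to 28d (log2 fold change 0.47 ± 0.10, edgeR adjusted p = 0.0249). Against sham, its estimates were −0.21 ± 0.09 at 5d and 0.27 ± 0.10 at 28d (edgeR adjusted p = 0.59 and 0.415). The call depended on single kidneys, since it was lost in 7 of the 22 fits that left out 1 kidney, those without 28d kidneys 2, 3 or 7 or without 5d kidneys 2, 3, 5 or 8, with adjusted p up to 0.0802. It was also lost when only the 2 groups compared entered the fit (adjusted p = 0.158).

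Hsp90ab1, the constitutive form (chr17:45567775-45573271, minus strand), was at 839.5, 882.7 and 962.8 CPM in the lowest, median and highest sham kidney, at 689.4, 812.9 and 904.2 at 5d, and at 774.5, 907.0 and 1144 at 28d. At 5d, 7 of 8 kidneys were below every sham kidney, while at 28d kidneys 2, 3 and 7 were above and kidneys 1 and 4 below every sham kidney. Its log2 fold change was −0.17 ± 0.07 at 5d against sham, 0.10 ± 0.08 at 28d against sham and 0.27 ± 0.08 at 28d against 5d (edgeR adjusted p = 0.564, 0.791 and 0.169), and none passed the test.

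The constitutive HSP70 of the cytosol and the HSP70 of the ER separated the 28d kidneys from each other. Hspa8 (Hsc70, chr9:40800984-40810087, plus strand, with 3 small nucleolar RNA genes inside it) was at 580.4, 745.8 and 944.1 CPM in the lowest, median and highest sham kidney, at 616.1, 749.2 and 1061 at 5d, and at 698.4, 1024 and 1459 at 28d. Kidneys 2, 3 and 7 at 28d held 1351, 1459 and 1198 CPM, above all sham and 5d kidneys, and the other 3 at 28d lay inside the sham range. The log2 fold change at 28d was 0.49 ± 0.17 against sham and 0.42 ± 0.17 against 5d (edgeR adjusted p = 0.401 and 0.466).

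Hspa5 (chr2:34771970-34777547, plus strand) was at 262.2, 317.4 and 428.9 CPM in the lowest, median and highest sham kidney, at 263.5, 331.1 and 412.1 at 5d, and at 281.2, 444.7 and 777.0 at 28d. The same kidneys 2, 3 and 7 at 28d held 629.5, 777.0 and 526 CPM, above every sham and 5d kidney, and kidneys 1, 4 and 6 were inside the range of the controls. With a spread of 193 CPM (SD, n = 6) at 28d compared with 53.2 in sham and 46.4 at 5d, the log2 fold change of 0.61 ± 0.19 against sham and 0.55 ± 0.19 against 5d did not pass the test (edgeR adjusted p = 0.323 and 0.315). Without 28d kidney 3 these estimates were 0.43 and 0.36.

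Hspd1, the mitochondrial chaperonin (chr1:55077835-55088243, minus strand, overlapped by Hspe1 on the opposite strand) was at 279.2, 307.1 and 335.2 CPM in the lowest, median and highest sham kidney, at 213.6, 303.4 and 332.2 at 5d, and at 289.8, 302.0 and 352.1 at 28d. The groups overlapped almost fully, with 3 of the 5d kidneys below the sham range. Its log2 fold change at 28d against sham was 0.01 ± 0.07, with a 95% interval from −0.12 to 0.15 (edgeR adjusted p = 0.984).

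**Figure D2:**
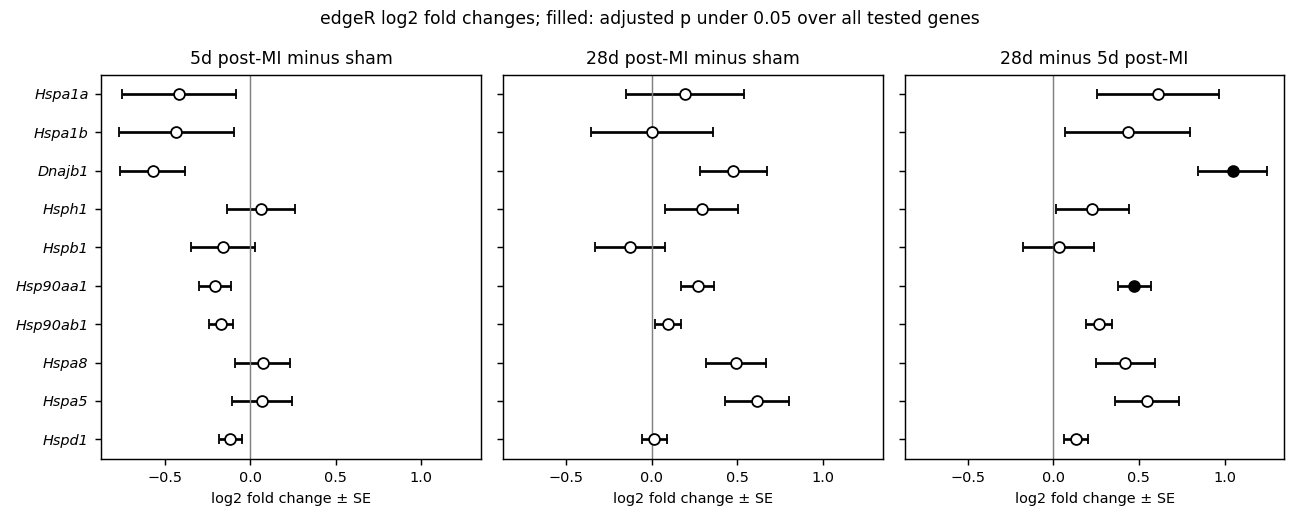
The log2 fold change of each chaperone (horizontal axis, first group minus second, ± SE from edgeR) in 3 comparisons of 8 sham, 8 5d post-MI and 6 28d post-MI kidneys, with an adjusted p under 0.05 over all tested genes marked by filled points. The filled points are those of Dnajb1 (1.05) and Hsp90aa1 (0.47) at 28d against 5d.

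Since both times share the sham kidneys, comparing 28d with 5d directly tests for a difference between the changes from sham. Dnajb1 and Hsp90aa1 passed it, and for the other 8 chaperones a difference between the times was not shown. For Hsp90ab1, whose estimate was the next in order of p, the 95% interval of the difference ran from 0.12 to 0.41 before adjustment.

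Viewed by kidney, the 3 highest values of each gene were concentrated in few mice. Kidney 7 at 28d was among the 3 highest of the 22 kidneys for 8 of the 10 chaperones, kidneys 2 and 3 at 28d for 6 each, and sham kidney 3 for 5. The sum of the 10 genes was between 2409 and 3015 CPM in sham kidneys (median 2695), between 2180 and 3170 at 5d (median 2527) and between 2468 and 4347 at 28d (median 3300). The highest kidneys differed between genes only in part. Sham kidney 3 was high in Hspa1a, Hspa1b, Dnajb1 and Hspb1 but at 265.2 CPM in Hspa5 among the lowest of its group. At 28d, kidney 3 had the highest Hspa5 and Hspa8 with Hspa1b at 59.4 CPM, inside the sham range. Kidneys 2 and 7 at 28d were among the 3 highest for Hspa1a and Dnajb1 and also for Hspa8, Hspa5, Hsp90aa1 and Hsp90ab1.

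**Figure D3:**
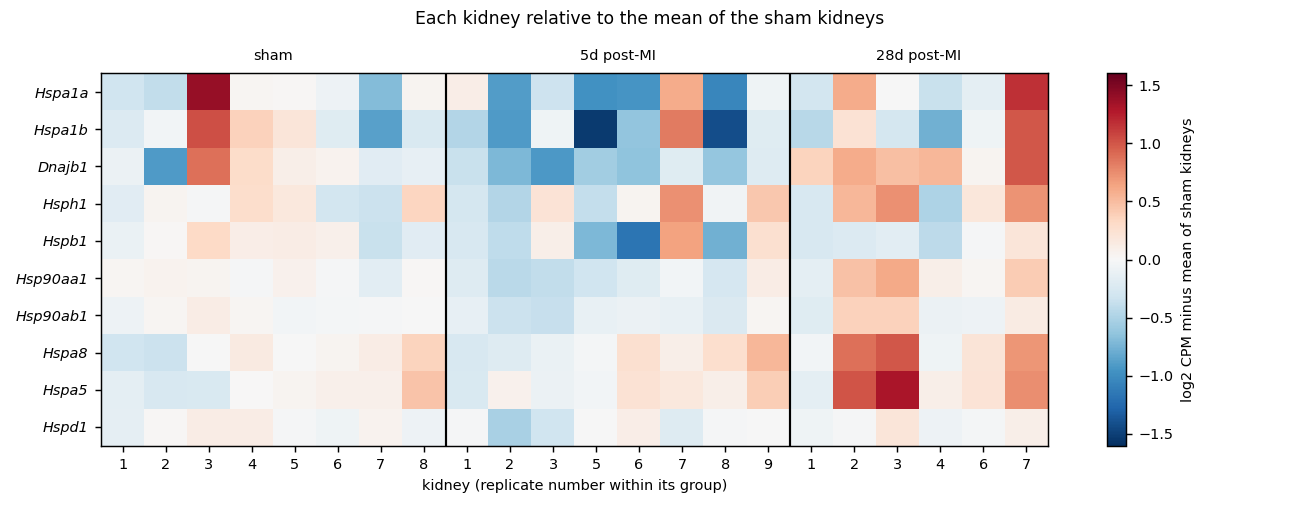
Log2 CPM of each chaperone (rows) in each kidney (columns, replicate number within its group) minus the mean of the 8 sham kidneys, on a color scale from blue (lower) to red (higher). Kidneys 2, 3 and 7 at 28d are red for Hspa8 and Hspa5, whereas sham kidney 3 is red for Hspa1a, Hspa1b and Dnajb1.

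Whether the genes vary together from mouse to mouse was examined after the mean of its group had been subtracted from each log2 CPM value, so that differences between the groups did not enter. The p-values are from 100000 permutations within groups, for which 1e-05 is the smallest possible value, and are two-sided. Of the 9 pairs with Hspa1a, all had r above 0 (51.1% of all other genes tested) and 5 passed an adjusted p under 0.05. The lowest r among these 5 was 0.511, a value that 1.03% of all other genes tested reached or exceeded with Hspa1a. Hspa1b followed it most closely (Pearson's r = 0.895, Spearman's rho = 0.881, permutation p = 1e-05 for both, adjusted p = 9e-05, n = 22 kidneys), and r was 0.859 without sham kidney 3 and 28d kidney 7, the kidneys farthest from the median of Hspa1a. How reads that map to both copies were counted is not given, and their part in this r was not tested. Hspb1 came next (r = 0.736, permutation p = 3e-05, adjusted p = 0.00013, and rho = 0.805, p = 0.00011, adjusted p = 0.00049), with r = 0.779 without these 2 kidneys.

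Dnajb1 also varied with Hspa1a (r = 0.731, permutation p = 0.00056, adjusted p = 0.0017, and rho = 0.64, p = 0.0032, adjusted p = 0.0071), but r was 0.509 without sham kidney 3 and 28d kidney 7. For Hsph1 with Hspa1a, r was 0.577 (permutation p = 0.0066, adjusted p = 0.015) and rho 0.65 (p = 0.003, adjusted p = 0.0071), and r was 0.667 without these kidneys. For Hsp90aa1 with Hspa1a, r was 0.511 (permutation p = 0.018, adjusted p = 0.032) and rho 0.56 (p = 0.012, adjusted p = 0.022), with r = 0.555 without them. The pairs of Hspa1a with Hsp90ab1 (r = 0.423), Hspa8 (r = 0.28), Hspa5 (r = 0.175) and Hspd1 (r = 0.133) did not pass.

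Over all 45 pairs, an analysis added after the first results were seen, 44 had r above 0 and 20 passed an adjusted p under 0.05, the lowest of these at r = 0.484. Of all pairs of tested genes, 49.9% had r above 0 and 2.07% had r of 0.484 or more. The closest pair was Hspa8 with Hspa5 (r = 0.916, rho = 0.92, permutation p = 1e-05 for both, adjusted p = 0.00022 and 0.00015). Within groups r was 0.837 in sham, 0.862 at 5d and 0.978 at 28d, and over all kidneys it was 0.877 without 28d kidneys 2 and 3. Hsp90aa1 and Hsp90ab1 had r = 0.882 (permutation p = 6e-05, adjusted p = 0.00054) and rho = 0.781 (p = 0.0012, adjusted p = 0.0078). Within groups this pair had r = 0.857 at 5d and 0.961 at 28d but 0.135 in sham, where Hsp90aa1 had an SD of 8.32 CPM, and r was 0.818 without 28d kidneys 2 and 3.

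The pairs that join these HSP70 and HSP90 genes differed in r between the groups, a difference that was not tested. For Hspa8 with Hsp90aa1, r was 0.729 over all kidneys (rho = 0.574, permutation p = 0.0042 and 0.025, adjusted p = 0.014 and 0.048), but −0.347 within sham, 0.729 within 5d and 0.949 within 28d. Hspa5 with Hsp90aa1 had r = 0.762 over all kidneys and −0.244, 0.647 and 0.983 within the groups in this order, Hspa5 with Hsp90ab1 had 0.743 and −0.310, 0.510 and 0.982, and Hspa8 with Hsp90ab1 had 0.773 and 0.159, 0.641 and 0.964. For the last 3 pairs rho was between 0.634 and 0.661, with permutation p between 0.0014 and 0.0054 for r and between 0.0075 and 0.017 for rho (adjusted p between 0.0064 and 0.036). Without 28d kidneys 2 and 3, r of these 4 pairs was between 0.471 and 0.614.

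Hsph1 varied with genes of several kinds, with r = 0.697 to Hspa1b, 0.751 to Hsp90aa1, 0.706 to Hspa8 and 0.665 to Hspa5 (permutation p between 0.00065 and 0.0048, adjusted p between 0.0042 and 0.015). Within sham these r were 0.434, 0.548, 0.357 and 0.322 in this order. The pairs of Hsph1 with Hsp90ab1 (r = 0.595, permutation p = 0.025, adjusted p = 0.053), Hspd1 (r = 0.284) and Dnajb1 (r = 0.26) did not pass. The rho of Hsph1 was 0.68 to Hspa1b, 0.77 to Hsp90aa1, 0.693 to Hspa8 and 0.678 to Hspa5 (permutation p between 0.00072 and 0.005), and r without the 2 farthest kidneys was 0.741, 0.697, 0.635 and 0.591. Hspb1 had r = 0.794 to Hspa1b (permutation p = 3e-05, adjusted p = 0.00034, rho = 0.863, p = 1e-05, r = 0.778 without the 2 farthest kidneys) and 0.038 to Hspa5, where permutation p was 0.82.

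**Figure D4:**
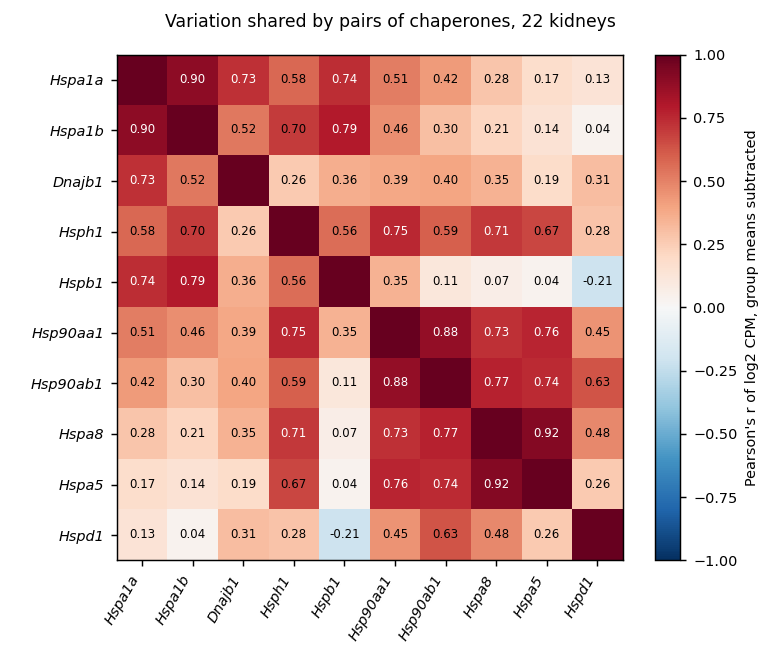
Pearson's r of log2 CPM for each pair of chaperones across 22 kidneys, with the mean of each group subtracted; red marks positive and blue negative values. Hspa1a, Hspa1b and Hspb1 share a red block, and Hspa8, Hspa5, Hsp90aa1 and Hsp90ab1 a second one, with Hsph1 red in both. Within sham kidneys alone the pairs of Hspa8 or Hspa5 with an HSP90 gene have r between −0.347 and 0.159.

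Among the 12780 genes tested, the non-members most like the mean of Hspa1a, Hspa1b, Dnajb1 and Hsph1, by the same r across the 22 kidneys, were Mettl6 (0.775), Etf1 (0.774), Pcyox1 (0.739), Hnrnph3 (0.725), Akr1b3 (0.722), Ampd3 (0.694), Sdcbp (0.694) and the predicted gene Gm11407 (0.684). Etf1 encodes the translation termination factor eRF1 and Hnrnph3 an RNA-binding protein. None of these 8 genes was called in any comparison. For Hspa5 they were Manf (0.952), Tuba1c (0.89), Creld2 (0.887), the predicted gene Gm6210 (0.856) and Hsp90b1 (0.854). Manf and Creld2 are ER proteins that ER stress raises, and Hsp90b1 is the HSP90 of the ER. These are the highest of many values and are given as a description.

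Other genes of protein folding and turnover were read from 8 lists of 103 genes, of which 93 were tested. Of these, edgeR called 0 against sham at either time and 2 at 28d against 5d, both higher at 28d (0.336% of all genes). At an unadjusted p under 0.05, 4 were higher and 2 lower at 5d than in sham (3.92% and 3.97% of all genes), and 24 were higher and 1 lower at 28d than in sham, compared with 4.45% and 4.23% of all genes at 28d. The median log2 fold change of the 93 genes was 0.007, 0.08 and 0.06 in the 3 comparisons.

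The ER chaperones and genes of the unfolded protein response held most of them. All 23 were tested, and at 28d 22 of 23 had a log2 fold change above 0 against sham (49.6% of all genes). Of the 23, 14 had an unadjusted p under 0.05 upwards (4.45% of all genes), and the list's median was 0.21. Kidney 3 at 28d had the highest value of its group for 13 of the 23 genes. Without it, 20 of 23 were above 0, 5 had an unadjusted p under 0.05 and the median was 0.13, and without 28d kidney 2 these values were 21, 5 and 0.16. At 28d against 5d the median was 0.18, and 2 genes passed the test, both upwards (0.336% of all genes). Calr, the lectin chaperone calreticulin, was at 472.2 to 589.1 CPM at 5d and at 535.9 to 707.9 at 28d, and it rose by a log2 of 0.25 ± 0.06 (edgeR adjusted p = 0.0477), a call kept in 7 of the 22 fits that left out 1 kidney and lost without 28d kidneys 2, 3, 4 or 6, 5d kidneys 1, 2, 3, 7, 8 or 9, or sham kidneys 1, 2, 6, 7 or 8. Ddit3, the stress-induced transcription factor CHOP, was at 2.12 to 4.54 CPM at 5d and at 4.66 to 16.0 at 28d. The groups did not overlap in CPM, which 0.25% of all genes showed in this direction. The margin was narrow at this low level, since the counts before normalization were 5 to 15 at 5d and 12 to 51 at 28d and overlapped.

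Ddit3 rose by a log2 of 1.11 ± 0.26 from 5d to 28d (edgeR adjusted p = 0.0337), and by 0.71 with adjusted p = 0.297 without 28d kidney 7, which had the highest value. This call was also lost without 28d kidney 1 or 5d kidneys 2, 6, 7 or 8. Creld2 had a log2 fold change of 0.52 ± 0.16 at 28d against sham and Manf 0.57 ± 0.23, and neither passed (edgeR adjusted p = 0.27 and 0.48). Xbp1, the transcription factor of the unfolded protein response, had 0.41 ± 0.13 at 5d against sham with edgeR adjusted p = 0.425.

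Among the partners of the members, none was called. Of the HSP90 co-chaperones, 12 of 13 tested had a log2 fold change above 0 at 28d against sham (49.6% of all genes), with a median of 0.14. Of these, 5 had an unadjusted p under 0.05 (4.45% of all genes). Fkbp4, an immunophilin of steroid receptor complexes, was nearest to a call. It had 0.28 ± 0.07 at 28d against 5d and 0.30 ± 0.07 against sham (edgeR adjusted p = 0.058 and 0.0894). Ahsa1, which stimulates the HSP90 ATPase, had 0.30 ± 0.11 at 28d against sham (adjusted p = 0.369). Kidney 3 at 28d had the highest value of its group for both, 165.1 CPM for Fkbp4 (median 139.8) and 55.3 for Ahsa1 (median 40.0). Of 18 HSP70 partners, 3 had an unadjusted p under 0.05 upwards and 1 downwards at 28d against sham (4.45% and 4.23% of all genes). Among them was Dnaja1, a J-domain protein, with 0.38 ± 0.14 (edgeR adjusted p = 0.444).

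The 13 genes of the CCT chaperonin and prefoldin had medians of 0.01, 0.03 and 0.01 in the 3 comparisons, with 0 at an unadjusted p under 0.05 in each. The 10 mitochondrial chaperones had medians of 0.001, 0.04 and 0.04, and Hspe1, the partner of Hspd1, had 0.18 ± 0.07 at 28d against 5d (edgeR adjusted p = 0.37). All 4 other small heat shock genes that were tested had estimates below 0 against sham at both times, of which Hspb8 at 5d was −0.61 ± 0.18 (edgeR adjusted p = 0.302). Hsf1 itself had 0.29 ± 0.11 at 28d against 5d (edgeR adjusted p = 0.37).

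None of the 8 ubiquitin and other proteotoxic stress genes described here was called, and their medians were 0.01, 0.03 and 0.05 in the 3 comparisons. Vcp, the segregase that extracts ubiquitinated proteins for degradation, had 0.18 ± 0.05 at 28d against 5d (edgeR adjusted p = 0.164), and 0.12 ± 0.05 against sham (edgeR adjusted p = 0.53).

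**Figure D5:**
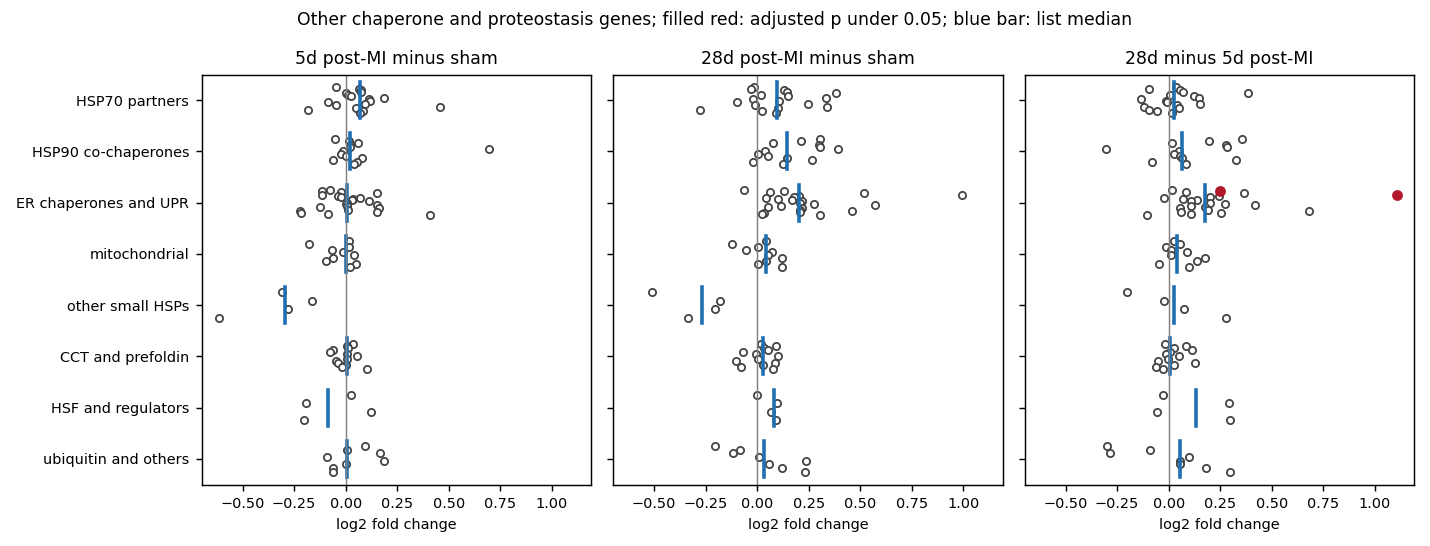
The log2 fold change (horizontal axis) of the 93 other chaperone and proteostasis genes tested, by list (rows), in 3 comparisons. Each circle is a gene, filled red where its adjusted p over all tested genes is under 0.05, and the blue bar is the median of the list, which for the ER genes at 28d against sham is 0.21.

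Immediate early genes and markers of other cells moved with the groups, and their part in the results above was not tested. Of the immediate early genes listed, 13 were tested, among them Fos, Jun and Egr1, which are induced within minutes of a stimulus. By the test, 10 of these were higher at 28d than at 5d (0.336% of all genes), and the median log2 fold change was 1.97. Against sham, 0 were called at either time. At an unadjusted p under 0.05, 11 were lower and 1 higher at 5d than in sham (3.97% and 3.92% of all genes), with a median of −1.48. At 28d, 5 were higher than in sham at this threshold (4.45%), with a median of 0.44. The summed level of all 15 listed was between 932.0 and 2119 CPM in sham, 341.0 and 995.1 at 5d and 1438 and 3309 at 28d, so that the 5d and 28d kidneys did not overlap, as for Dnajb1. Kidney 3 at 28d, which was highest in Hspa5 and Hspa8, had the lowest sum of its group. Red blood cell genes ran the other way, with all 4 tested called higher at 5d than in sham and lower at 28d than at 5d. Of all genes, 0.0704% and 0.415% were called in either direction in these comparisons. The sums of the red blood cell genes were 2200 to 4124 CPM in sham, 4968 to 19090 at 5d and 1795 to 5122 at 28d.

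The 8 adipocyte genes summed to 390.7 to 2120 CPM in sham, 194.9 to 1467 at 5d and 390.7 to 989.6 at 28d (medians 1189, 1108 and 542.6). At 28d against sham, 0 of the 7 tested were called by edgeR, but all 7 estimates were below 0, where 49.6% of all genes were above 0. Of the 7, 5 had an unadjusted p under 0.05 (4.23% of all genes in this direction), and the median log2 fold change was −0.99. The 6 adrenal genes were below the count filter and reached a sum of 965.8 CPM in sham kidney 2 and 84.0 in 5d kidney 5, and the adrenal enzyme Cyp11b1 was at 0 in all 28d kidneys, which allows up to 3 counts in each. Leaving out sham kidneys 2 and 6, in which adrenal genes were high, moved the estimate of Dnajb1 at 28d against sham from 0.48 to 0.37 (edgeR unadjusted p = 0.024 and 0.0612). At 5d against sham its estimate moved from −0.57 to −0.68 (edgeR unadjusted p = 0.00775 and 0.00142), and none of these passed after adjustment. Sham kidney 2 had the lowest Dnajb1 of the sham kidneys (30.1 CPM). The 10 leukocyte genes summed to 189.6 to 240.8 CPM in sham, 159.0 to 269.5 at 5d and 239.9 to 311.5 at 28d. Of the 6 tested, 1, the antibody gene Igkc, was called higher at 28d than at 5d (edgeR adjusted p = 0.00886), compared with 0.336% of all genes. The 6 genes did not move in 1 direction at 28d against sham, where 3 were above 0 and 3 below, with a median of −0.04. There Igkc had 1.68 ± 0.31 and Ptprc −0.81 ± 0.25 (edgeR adjusted p = 0.0633 and 0.29).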

How the data were processed

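Kidney RNA was sequenced by MACE with unique molecular identifiers. After trimming (cutadapt) and mapping, the authors assigned reads to genes with HTSeq, and the deposited values are whole-number counts that were not normalized. The authors also deposited values named tpm, which equal the CPM of each library within 5e-06 and are not divided by length. The paper names mm10, whereas the submitters' processing notes name mm39 with Bowtie2, FastQC and DESeq2. The annotation and strand setting are not given in the sources used here, so coordinates are those of GENCODE M21 (GRCm38), which holds 51948 of the 56941 identifiers.

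Of 48 value columns 44 were used. The other 4 belong to 2 kidneys, 1 at 5d and 1 at 28d, whose columns share a name and could not be assigned. No 2 kidneys of a group agreed within counting noise (chi-squared per degree of freedom 1.77 to 8.1 over 71 pairs). Median totals were 3206756 counts in sham, 3057828 at 5d and 2644574 at 28d, and a gene at 0 could have up to 3 counts, which covers counting error only.

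Genes were kept by edgeR 4.0.16 filterByExpr (minimum 10 counts), which left 12780 of 30116 genes with a count. TMM-normalized counts were fitted by the robust quasi-likelihood model with 3 groups and no covariate, and 3 contrasts were tested two-sided, with Benjamini-Hochberg adjustment over all tested genes and a call at an adjusted p under 0.05. The SE was derived from the log2 fold change and its F statistic. The fits and the pair test were checked on simulated data. DESeq2 1.42.0, limma 3.58.1 (voom), RLE size factors, no filter, only the 2 groups compared, a replicate block, both Hspa1 copies summed and leaving out each kidney were alternatives, run in R 4.3.3. Leaving out sham kidneys 2 and 6 was added after seeing the data. Pairs were computed in Python 3.11.15 with numpy 2.4.6 and scipy 1.17.1 from log2 CPM with a prior count of 2.

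The 10 genes and all lists were chosen with earlier results of these data known. Named genes are the 10 chaperones, genes of each list that were called or had the 2 lowest p-values in a contrast, and the 8 and 5 genes most like the inducible group and Hspa5; Manf and Hsp90b1 come from the last of these. The adrenal gene Cyp11b1 and the examples of marker lists were named after their values were seen. A gene of these lists is not reported here and was left out of their counts.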

Additional observations from a re-analysis of the deposited data

Results flagged for a closer look

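In 4 of the 30 sets of a chaperone in a group, 1 kidney stood apart from the others by Dixon's 95% criterion, which chance exceeds in about 1 of 20 sets. These were Hspa1a in sham kidney 3 (103.9 CPM, next 40.2), Hspa1b in 5d kidney 7 (129.1 CPM, next 68.7), Hspa5 in sham kidney 8 (428.9 CPM, next 330.0) and, on the low side, Hsp90aa1 in sham kidney 7 (146.5 CPM, next 162.3).

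The change from sham differed between 28d and 5d post-MI, by the test of the difference itself, for Dnajb1 (log2 1.05), Hsp90aa1 (0.47), Calr (0.25) and Ddit3 (1.11). The calls of Calr and Ddit3 were lost by limma's voom (adjusted p = 0.0545 and 0.0763) and with only the 2 groups compared (0.0772 and 0.0735), Calr was called in 7 and Ddit3 in 16 of the 22 fits without 1 kidney, Dnajb1 in 21 and Hsp90aa1 in 15.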

How the results depend on the processing

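Of the 10 chaperones, 2 were called at 28d against 5d by edgeR, and also by DESeq2, limma's voom, RLE size factors, with the Hspa1 copies summed and without sham kidneys 2 and 6. The count was 3 with no filter on low counts and 1 when only the 2 groups compared entered the fit, where Hsp90aa1 was lost. Without 1 kidney it was between 0 and 3 (0 without 28d kidney 7), and 1 without 28d kidneys 2 or 3 or 5d kidneys 2, 3, 5 or 8. Against sham, 0 were called at 5d under every alternative and 0 at 28d, except 1 (Hsp90aa1, adjusted p = 0.0235) with no filter. The estimate of Dnajb1 at 28d against 5d was between 0.92 and 1.13 over 30 alternatives and that of Hsp90aa1 between 0.40 and 0.55, with adjusted p between 0.000122 and 0.0919 and between 1.54e-08 and 0.158. DESeq2 gave no adjusted p for Ddit3 at 28d against 5d.

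The replicate numbers of the labels did not pair the kidneys. Over 18 pairs of the same number in different groups, the correlation of deviations from the group means was −0.127 to 0.09, and 2 of 22 kidneys were closest to one of their own number. With the numbers as a replicate block, 1 chaperone was called at 28d against 5d (Hsp90aa1, while Dnajb1 had adjusted p = 0.0919), and calls over all genes were 2 at 5d against sham, 24 at 28d against sham and 80 at 28d against 5d. Under this block Hspa8 (−0.029), Hspa5 (−0.021) and Hsph1 (−0.059) changed sign at 5d against sham, and Hspa1b (−0.227) at 28d against sham.

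Calls over all genes depended more on the setting. At 5d against sham they were 9, with 35 by DESeq2, 5 by voom, 80 with no filter, 2 with only the 2 groups, 1 without sham kidneys 2 and 6 and 1 to 38 without 1 kidney. At 28d against sham they were 3, with 42, 5, 94, 31, 1 and 0 to 29 in this order. At 28d against 5d they were 53, with 96 by DESeq2, 160 with no filter, 26 with only the 2 groups and 41 to 84 without 1 kidney. Of the other chaperone and proteostasis genes, 2 calls were made over the 3 comparisons, with 3 by DESeq2, 0 by voom and with only the 2 groups, 1 by RLE size factors and without sham kidneys 2 and 6, 8 with no filter, 4 with the replicate block, and 0 to 3 without 1 kidney.

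Estimates near 0 changed sign and passed no test. Hspa1b at 28d against sham was −0.03 by DESeq2, −0.057 without sham kidneys 2 and 6 and −0.304 to 0.188 without 1 kidney. Without 1 kidney, Hspa1a and Hspd1 at 28d against sham were −0.099 to 0.48 and −0.023 to 0.035, Hspa8 and Hsph1 at 5d against sham −0.003 to 0.13 and −0.062 to 0.131, and Hspb1 at 28d against 5d −0.063 to 0.209.

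Of the 9 pairs with Hspa1a, 5 passed over all kidneys, 3 to 6 without 1 kidney (3 without 5d kidney 7), and by exact permutation 1 within sham, 2 within 5d and 0 within 28d, where 6 kidneys limit the test. Pearson's r of Hspa1a with Hspa5 was −0.227 within sham and −0.007 within 5d, with Hspa8 −0.03 within 5d, and with Hspd1 −0.083 within 5d and, without the 2 farthest kidneys, −0.039 (−0.039 to 0.234 over the fits with fewer kidneys). The causes of these differences were not tested. The spread between mice was wide for Hspa1a (SD 25.2 on a mean of 43.2 CPM in sham), whose SEs were between 0.33 and 0.36.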
